A study of Mus musculus with 12 samples.

Results

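The 9 genes described here make, sense or share the substrate of the leukotrienes and prostaglandins. They were taken by name from the deposited table of 23309 genes, and all 9 were in it: Alox5, Alox5ap, Lta4h, Ltc4s, Ltb4r1, Alox15, Ptgs1, Ptgs2 and Hpgds. Transcripts were measured by RNA-seq in wild-type (WT) and HMGN1-OE mouse cells, grown with estradiol (E2) or 36 or 96 h after it was removed, with 2 libraries in each of 6 groups. The cells still in E2 are the 0 h groups. All cultures were bone marrow cells of C57BL/6 mice, immortalized with a retrovirus that expresses HoxB8 fused to the estrogen receptor and grown with interleukin 3. E2 keeps the fusion active and the cells immature, and its removal starts myeloid differentiation, so the 0 h cells are immortalized progenitors and not primary ones. HMGN1-OE cells carry human HMGN1 as a transgene, and the controls came from wild-type littermates. The promoter that drives the transgene and the age of the donor mice were not given in the sources used here.

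Eicosanoids are lipid mediators made from arachidonic acid, which phospholipases release from membranes. One branch runs through 5-lipoxygenase to the leukotrienes. Leukotriene B4 draws neutrophils to inflamed tissue, and the cysteinyl leukotrienes act on airway muscle and vessels. The other branch runs through the cyclooxygenases to prostaglandin H2, from which terminal synthases make prostaglandins and thromboxane. Mature neutrophils are known as producers of leukotriene B4, whereas eosinophils, mast cells and basophils are known for leukotriene C4.

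The values are FPKM (fragments per kilobase of transcript, scaled for library size) normalized by the authors to synthetic ERCC RNAs that were added for a fixed number of cells. On this scale the median tested gene lay between 14.1 and 30.3 FPKM in the libraries of 0 and 36 h and between 3.06 and 7.32 FPKM at 96 h. A second scale, in which each library was divided by its own median, is therefore given beside the changes over time that the text turns on, as a value relative to the median gene. The 2 scales also differ in their standard errors, which come from a trend over all genes on the deposited scale and mostly from each gene's own libraries on the second. The read depth of the libraries is unknown. Mouse Hmgn1 was 85.7 and 141 FPKM in WT and 201 and 97.6 FPKM in HMGN1-OE cells at 0 h, so its groups overlapped, and the human transgene was not analysed here. The summed level of 12 neutrophil markers was between 211 and 2960 FPKM in the libraries of 0 and 36 h and between 67200 and 173000 at 96 h. That of 8 progenitor markers was at least 5680 FPKM up to 36 h and at most 2340 at 96 h. The WT libraries of 1 time differed from each other in several markers. At 36 h Flt3, a receptor of early progenitors, was 4.1 FPKM in library 0 and 67 in library 1, and Cd34 was 264 and 1110 FPKM. S100a9, among the most abundant neutrophil RNAs, was listed at 0.0511 FPKM in WT library 0 at 96 h and at 26500 or more in the other libraries of that time, while its partner S100a8 was 69900 FPKM in that same library. Whether a WT culture or column was exchanged was not tested, and the WT values and genotype differences hold that uncertainty. Hoxa9, a homeobox gene of progenitors that was chosen after its values were seen, was 2.99 and 0.230 FPKM in WT and 31.5 and 6.87 FPKM in HMGN1-OE cells at 0 h, so its genotypes did not overlap there, and they overlapped at 36 and 96 h. Library digits are those of the columns and do not tie a library to one of another group.

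The members covered a wide span of levels. By mean FPKM, a value per transcript length, their order in WT cells at 0 h was Lta4h (438), Alox5ap (267), Ptgs1 (79.9), Hpgds (13.5), Ltb4r1 (7.22), Alox5 (7.18), Ptgs2 (2.23), Ltc4s (0.89) and Alox15 (0.22). The wide pair of Alox5 overlapped those of Hpgds, Ltb4r1, Ptgs2 and Ltc4s, and no other neighbours in this order overlapped (n = 2 for each gene). At 96 h the WT order was Alox5ap (339), Lta4h (226), Ptgs1 (76.6), Ltb4r1 (69.4), Alox5 (27.9), Alox15 (5.73), Ltc4s (4.85), Hpgds (3.43) and Ptgs2 (1.61). Ltb4r1 had moved above Hpgds, and Alox15 and Ltc4s had moved above Hpgds and Ptgs2. Neighbours overlapped there except for Lta4h with Ptgs1, Ltc4s with Hpgds and Hpgds with Ptgs2. In HMGN1-OE cells the order at 96 h was Alox5ap (332), Lta4h (313), Ptgs1 (91.2), Ltb4r1 (70.6), Ltc4s (3.38), Alox5 (3.25), Alox15 (2), Hpgds (1.84) and Ptgs2 (1.36), with a gap without overlap only between Lta4h and Ptgs1, between Ptgs1 and Ltb4r1 and between Ltb4r1 and Ltc4s.

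**Figure D1:**
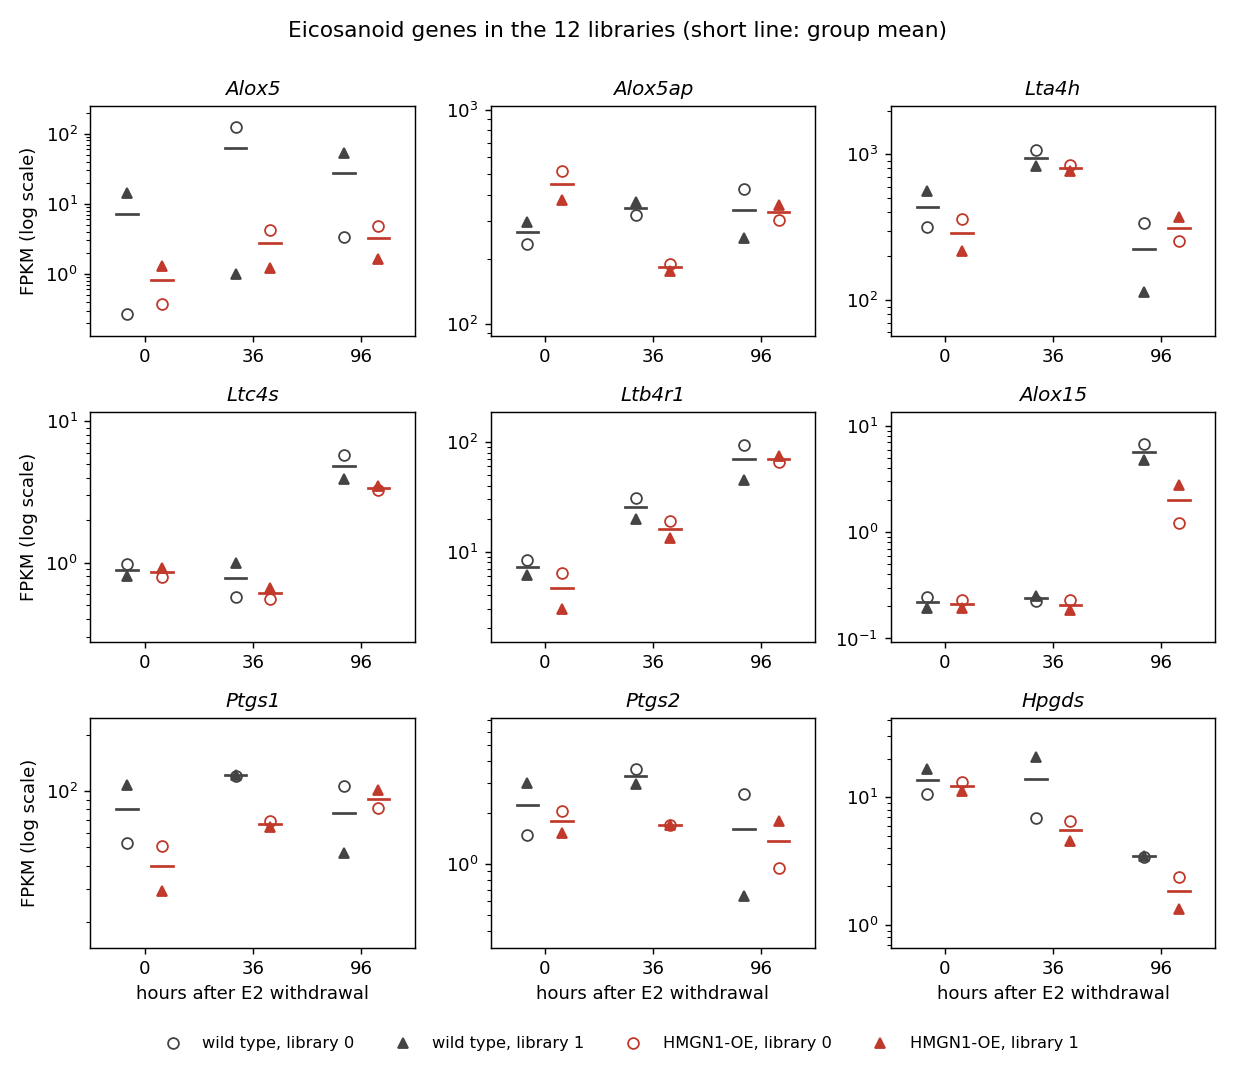
FPKM of the 9 genes on log axes at 0, 36 and 96 h after E2 withdrawal, with WT in grey, HMGN1-OE in red, circles for library 0, triangles for library 1 and a short line for the mean of 2 libraries. Ltc4s, Ltb4r1 and Alox15 lie higher at 96 h than at 0 h in every library of both genotypes, Hpgds lies lower, and the 2 WT values of Alox5 lie far apart at each time.

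Between 0 and 96 h, 5 of the 9 genes were called in WT cells, where 81.5% of all 11516 tested genes were called, and 6 of 9 in HMGN1-OE cells, where 67.5% were. Called means an adjusted p under 0.05 in limma on log2(FPKM + 1). The direction set the members apart from that background only as a description. Alox5, Ltc4s, Ltb4r1 and Alox15 rose in WT cells, 4 of 9, while 4.31% of tested genes were called as higher. The WT libraries of Alox5 overlapped, and its value was 0.02 without WT library 0 of 0 h and 0.01 without WT library 1 of 96 h. In HMGN1-OE cells Ptgs1 rose as well, giving 5 of 9 against 5.08%. There the rise of Alox5 was 0.58 without HMGN1-OE library 0 of 96 h, and that of Ptgs1 was 0.82 without HMGN1-OE library 1 of 0 h. Hpgds fell in both genotypes. The median change of the members was 0.30 in WT and 1.16 in HMGN1-OE cells on the log2(FPKM + 1) scale, against -1.75 and -1.28 over all tested genes. Relative to the median gene, 7 of 9 rose and 0 fell in each genotype. On that scale 72.1% of tested genes were called in WT cells, 32.5% as higher and 39.6% as lower, and 66.8% in HMGN1-OE cells, 29.5% as higher and 37.3% as lower. The 2 genotypes have separate 0 h controls.

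**Figure D2:**
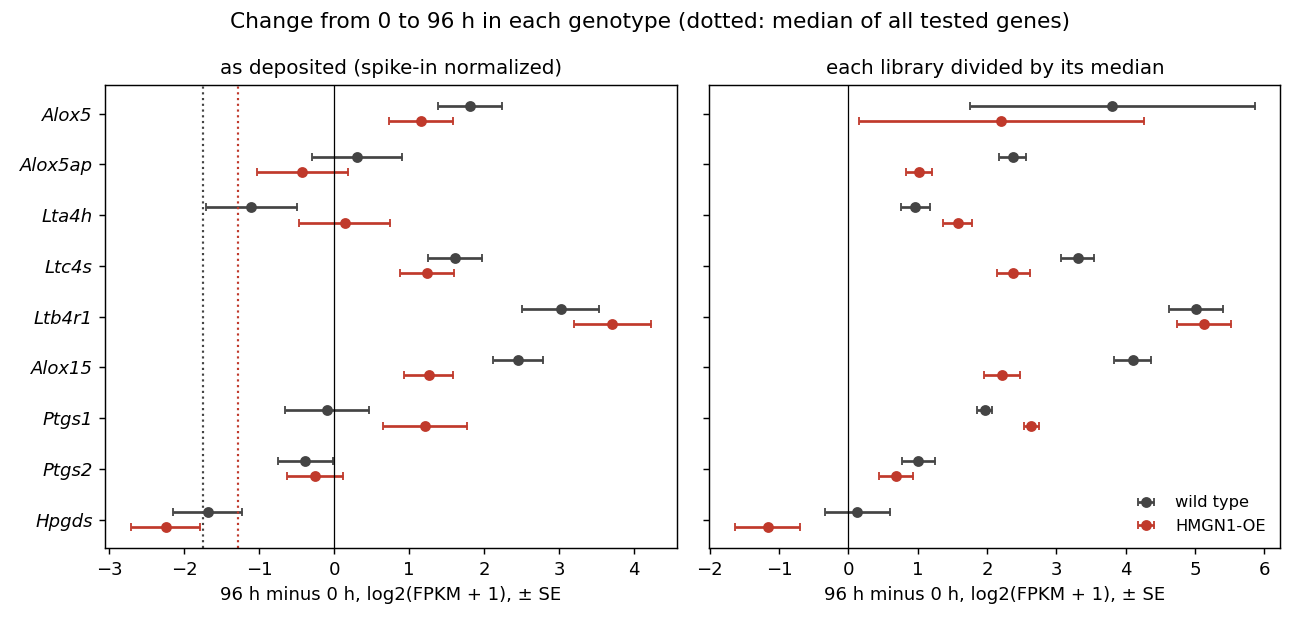
Difference between 96 h and 0 h in log2(FPKM + 1) with its standard error for each gene in WT (grey) and HMGN1-OE cells (red), as deposited on the left and with each library divided by its median on the right. Dotted lines on the left mark the median of all tested genes, at -1.75 in WT and -1.28 in HMGN1-OE cells, and each point except that of Hpgds in HMGN1-OE cells lies to the right of the line of its genotype.

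Alox5 encodes 5-lipoxygenase, which turns arachidonic acid into the unstable leukotriene A4. The gene is on chromosome 6 of the minus strand in GENCODE vM21 and has 12 merged exons. Its promoter is shown because this gene had the widest spread between libraries. RefSeq lists these 250 bases before its start (GRCm38.p6, chr6:116461179-116461428, minus strand), with capitals marking a GC box, the letters GGGCGG on either strand:
Alox5: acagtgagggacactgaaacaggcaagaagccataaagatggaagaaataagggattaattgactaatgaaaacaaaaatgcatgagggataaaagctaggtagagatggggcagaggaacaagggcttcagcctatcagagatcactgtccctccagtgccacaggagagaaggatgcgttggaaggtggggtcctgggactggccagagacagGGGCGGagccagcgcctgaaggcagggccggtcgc
The GC box lay at bases -35 to -30 from the start, and 32.7% of 32851 promoters of that length hold one. The promoter held neither AGGAAG, the core of ETS factor sites, nor the C/EBP core TTNNGNAA, on either strand, which 29.5% and 36.8% of promoters hold.

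In WT cells Alox5 was 0.264 and 14.1 FPKM at 0 h, 123 and 0.99 FPKM at 36 h, and 3.41 and 52.4 FPKM at 96 h. In HMGN1-OE cells it was 0.369 and 1.28 FPKM at 0 h, 4.25 and 1.23 FPKM at 36 h, and 4.85 and 1.65 FPKM at 96 h. One WT library at each time was thus above all 6 HMGN1-OE libraries, and the other was within or below their range. The higher WT library exceeded the lower one 53.5-fold at 0 h, 124-fold at 36 h and 15.4-fold at 96 h, whereas the HMGN1-OE pairs differed between 2.95- and 3.47-fold.

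With these libraries, Alox5 was lower in HMGN1-OE than in WT cells by limma at 36 h, by a log2 difference of -2.20 (SE 0.43, adjusted p = 5.3e-05), and at 96 h, by -1.96 (SE 0.43, adjusted p = 0.000959). At 0 h the difference was -1.31 (SE 0.43, adjusted p = 0.142). WT and HMGN1-OE libraries overlapped at each of the 3 times, so the differences are within the spread between replicates. The standard error comes from a trend over all genes and does not hold the spread of Alox5 itself. Relative to the median gene, where the standard error was 2.05, Alox5 was called in 0 of these 3 comparisons. Without WT library 0 of 36 h the difference at 36 h was 0.78, and without WT library 1 it was -5.18. At 96 h it was -0.16 without WT library 1 and -3.76 without WT library 0. The call at 36 h was also lost without HMGN1-OE library 1 of 36 h (-1.58), and that at 96 h without HMGN1-OE library 1 of 96 h (-1.39). WT library 0 of 0 h, which enters those fits only through the spread, ended both calls when left out, and WT library 1 of 0 h that at 96 h. Without WT library 0 of 0 h the difference at 0 h was -3.10 and was called (limma, adjusted p = 0.00811), and without WT library 1 of 0 h it turned to 0.48 (limma, adjusted p = 0.901). The genotypes differed in the change from 0 to 36 h by -0.89 with all libraries, by -3.87 without WT library 1 of 36 h (limma, adjusted p = 1.7e-05), by 2.09 without WT library 0 of 36 h (limma, adjusted p = 0.0607) and by 0.90 without WT library 0 of 0 h, so the sign of this value was set by single libraries.

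The change of Alox5 over time rested on single libraries in the same way. In WT cells it rose by 1.85 from 0 to 36 h on the log2 scale (limma, adjusted p = 0.00403), but the value was -1.13 without WT library 0 of 36 h, 4.83 without library 1 of 36 h, 0.06 without WT library 0 of 0 h and 3.64 without library 1 of 0 h. From 0 to 96 h it rose by 1.81 in WT cells (limma, adjusted p = 5.77e-05), but the value was 0.02 without WT library 0 of 0 h and 0.01 without library 1 of 96 h, and neither was called. It was 3.60 without library 1 of 0 h and 3.61 without library 0 of 96 h. In HMGN1-OE cells the libraries of 96 h lay above those of 0 h, with a difference of 1.16 (limma, adjusted p = 0.0131). That call was lost without HMGN1-OE library 0 of 96 h (0.58, adjusted p = 0.38 in limma), without HMGN1-OE library 0 of 0 h (0.79, adjusted p = 0.243 in limma) and without either WT library of 0 h, which enter only through the spread. Relative to the median gene, none of these 3 changes was called by limma. They were 1.65 from 0 to 36 h in WT cells (adjusted p = 1), 3.81 from 0 to 96 h in WT cells (adjusted p = 0.125) and 2.21 from 0 to 96 h in HMGN1-OE cells (adjusted p = 0.362), each with a standard error of 2.05.

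Other genes separated the WT libraries as Alox5 did, and the part of what they mark in the Alox5 values was not tested. Ly6c2, a surface protein of inflammatory monocytes, was 92.3 and 846 FPKM at 0 h and 2180 and 275 FPKM at 36 h in WT cells, higher in the library with more Alox5. At 96 h it was 662 and 307 FPKM, lower in that library. Csf1r, the receptor of the macrophage growth factor, was higher in the library with more Alox5 at each time, with 0.408 and 1.13, 3.62 and 0.473, and 7.17 and 13.5 FPKM. Adgre1, a macrophage surface protein, was 59.6 and 102 FPKM at 36 h and 18.7 and 13.9 FPKM at 96 h, lower in the library with more Alox5. All 10 monocyte or macrophage markers were in the table, and 9, 6 and 7 of them were higher in that library at 0, 36 and 96 h. Markers of other types were too, with all 8 progenitor markers at 0 h, and 10 of 12 neutrophil, 8 of 9 eosinophil and 9 of 11 basophil or mast cell markers at 36 h. The counts at 96 h were 0 of 8 progenitor, 4 of 12 neutrophil, 1 of 9 eosinophil and 1 of 11 basophil or mast cell markers, and that of progenitor markers at 36 h was 4 of 8. The median tested gene was 26.5 FPKM in the library with more Alox5 and 14.1 in the other at 0 h, 24.8 and 30.3 at 36 h, and 3.06 and 6.92 at 96 h. The sum of the monocyte or macrophage markers ranged from 173 to 1020 FPKM in WT cells at 0 h, from 459 to 2380 at 36 h and from 425 to 766 at 96 h. The lower sum of 96 h belonged to the library with more Alox5. In HMGN1-OE cells it ranged from 72.5 to 178, from 224 to 235 and from 787 to 1360 FPKM. Ly6c2 made up most of the higher sums, and Cx3cr1, a chemokine receptor, was at most 0.328 FPKM in every library, near the value of about 0.1 at which 6202 genes stand.

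**Figure D3:**
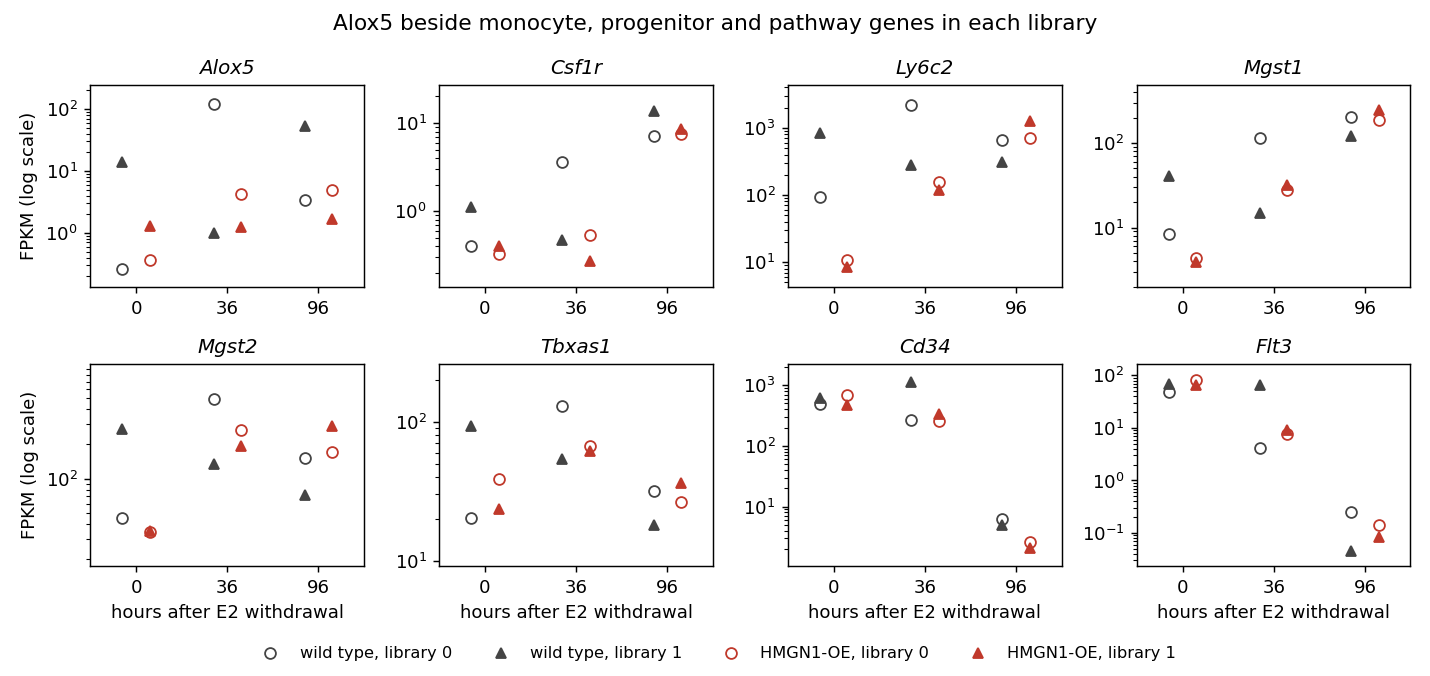
FPKM on log axes of Alox5, the monocyte genes Csf1r and Ly6c2, the pathway genes Mgst1, Mgst2 and Tbxas1 and the progenitor genes Cd34 and Flt3 in the 12 libraries, with circles for library 0 and triangles for library 1. At 0 and 36 h the WT library (grey) with more Alox5 also has more Csf1r, Ly6c2, Mgst1, Mgst2 and Tbxas1, and at 96 h only Csf1r among these 5 genes is higher in it.

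Alox5ap encodes the membrane protein FLAP, which hands arachidonic acid to 5-lipoxygenase. It is on chromosome 5 and overlaps the antisense gene Gm19719, whose reads cannot be told apart from its own because the library kit does not mark strand. It was 236 and 299 FPKM in WT cells at 0 h, 321 and 371 at 36 h, and 427 and 251 at 96 h. HMGN1-OE cells had 518 and 378 FPKM at 0 h, 190 and 176 at 36 h, and 305 and 359 at 96 h. The transcript was abundant in every library, and none of the 9 comparisons of times or genotypes was called on the deposited scale. Its change from 0 to 96 h was 0.30 in WT (SE 0.60) and -0.42 in HMGN1-OE cells (SE 0.60). On the scale relative to the median gene these changes were 2.37 (limma, adjusted p = 1.37e-05) and 1.02 (limma, adjusted p = 0.00157). In HMGN1-OE cells both libraries of 36 h lay below both of 0 h, with a difference of -1.27 on the log2 scale (limma, adjusted p = 0.793) that was -1.30 relative to the median gene (limma, adjusted p = 0.0442). In WT cells the same change was 0.38 (limma, adjusted p = 0.625). The difference between these changes was -1.65 (SE 0.85), with an interaction p of 0.052 in limma before and 0.873 after adjustment. At 0 h both HMGN1-OE libraries lay above both WT libraries, by 0.73 (limma, adjusted p = 1) and relative to the median gene by 0.87 (limma, adjusted p = 0.267). At 36 h both lay below both WT libraries, by -0.91 (limma, adjusted p = 0.496) and relative to the median gene by -0.31 (limma, adjusted p = 1).

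Lta4h encodes leukotriene A4 hydrolase, the enzyme that makes leukotriene B4. It is on chromosome 10 and was the most abundant of the 9 genes at 36 h. It was 315 and 560 FPKM in WT cells at 0 h, 1070 and 827 at 36 h, and 337 and 114 at 96 h. The HMGN1-OE values were 362 and 216 FPKM at 0 h, 850 and 764 at 36 h, and 254 and 373 at 96 h. In both genotypes the libraries of 36 h lay above all libraries of the other 2 times. The difference from 0 to 36 h was 1.16 in WT (limma, adjusted p = 0.589) and 1.52 in HMGN1-OE cells (limma, adjusted p = 0.395). Set against the median gene it was 0.66 and 1.49, and the second was called (limma, adjusted p = 0.0442). From 36 to 96 h Lta4h fell in WT cells, by -2.25 (limma, adjusted p = 0.000289), and in HMGN1-OE cells, by -1.39 (limma, adjusted p = 0.034). Against the median gene these values were 0.31 and 0.08, with neither called, so the fall was about that of the median gene. The WT value was -1.48 without library 1 of 96 h, and the HMGN1-OE call was lost without any 1 of the 4 HMGN1-OE libraries of 36 and 96 h, with differences between -1.11 and -1.66, and without either WT library of 36 h. From 0 to 96 h the WT difference was -1.10 (limma, adjusted p = 0.0834), and it was called without WT library 0 of 0 h (-1.51) or WT library 0 of 96 h (-1.87), whereas relative to the median gene it was 0.97 (limma, adjusted p = 0.00314). The HMGN1-OE difference was 0.14 (limma, adjusted p = 0.841), and 1.58 relative to the median gene (limma, adjusted p = 0.000268).

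Ltc4s encodes leukotriene C4 synthase, which joins leukotriene A4 to glutathione, and Ltb4r1 encodes BLT1, the high-affinity receptor of leukotriene B4. Both rose from 0 to 96 h in both genotypes under every alternative that included them, 21 for Ltc4s and 22 for Ltb4r1, and their promoters are shown for that reason. RefSeq lists these bases before their starts (GRCm38.p6, chr14:55765712-55765961, plus strand, for Ltb4r1 and chr11:50238533-50238782, minus strand, for Ltc4s), with capitals marking the GC box (GGGCGG) and the ETS core (AGGAAG) on either strand:
Ltb4r1: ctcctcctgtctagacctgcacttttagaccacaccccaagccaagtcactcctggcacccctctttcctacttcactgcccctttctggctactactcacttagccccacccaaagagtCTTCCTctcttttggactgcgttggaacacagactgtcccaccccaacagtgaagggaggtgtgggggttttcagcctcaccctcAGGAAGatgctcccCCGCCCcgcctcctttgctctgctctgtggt
Ltc4s: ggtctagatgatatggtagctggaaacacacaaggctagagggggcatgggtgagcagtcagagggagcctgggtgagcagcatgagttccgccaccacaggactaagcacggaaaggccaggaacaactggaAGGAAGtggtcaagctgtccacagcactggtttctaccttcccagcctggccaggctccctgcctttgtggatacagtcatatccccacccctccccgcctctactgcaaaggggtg
The Ltb4r1 promoter held 1 GC box at -31 to -26 and 2 ETS cores, at -130 to -125 and -45 to -40. That of Ltc4s held 1 ETS core at -117 to -112 and no GC box, and neither held the C/EBP core. Of the 9 members, 7 had a promoter in the table, and the C/EBP core was in those of Ptgs2 and Hpgds, with 2 matches each.

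Ltb4r1, on chromosome 14, was 8.36 and 6.09 FPKM in WT cells at 0 h, 31.2 and 19.8 at 36 h, and 93.6 and 45.3 at 96 h. In HMGN1-OE cells it was 6.37 and 3.02 FPKM at 0 h, 19 and 13.2 at 36 h, and 66.4 and 74.8 at 96 h. The 3 times did not overlap in either genotype, and each later time was higher. Over the 96 h it rose by 3.02 on the log2 scale in WT (SE 0.51, adjusted p = 3.23e-08 in limma) and by 3.71 in HMGN1-OE cells (SE 0.51, adjusted p = 1.75e-11 in limma). The rise relative to the median gene was 5.02 and 5.13. The step from 0 to 36 h was 1.67 in WT (limma, adjusted p = 0.164) and 1.63 in HMGN1-OE cells (limma, adjusted p = 0.0798), and both were called when either WT library of 96 h was left out, and the second also without either WT library of 0 h. The step from 36 to 96 h was 1.35 in WT (limma, adjusted p = 0.0102) and 2.09 in HMGN1-OE cells (limma, adjusted p = 0.000227). The WT call was lost without library 1 of 36 h (1.04) or library 0 of 96 h (0.84). The genotypes differed by -0.58, -0.62 and 0.11 at 0, 36 and 96 h, and by -0.48, -0.05 and -0.38 relative to the median gene, and none of these was called.

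Ltc4s, on chromosome 11, overlaps the antisense gene Gm26542, so its level holds the same uncertainty as that of Alox5ap. It was between 0.554 and 0.989 FPKM in the 8 libraries of 0 and 36 h. At 96 h it was 5.80 and 3.91 FPKM in WT and 3.27 and 3.49 FPKM in HMGN1-OE cells. All 4 late libraries were above all 8 early ones. From 0 to 96 h Ltc4s rose by 1.61 in WT (SE 0.36, adjusted p = 1.83e-05 in limma) and by 1.24 in HMGN1-OE cells (SE 0.36, adjusted p = 0.00156 in limma), which understates the fold change of a gene near the pseudocount of 1. Against the median gene the rises were 3.31 and 2.38 (limma, adjusted p = 9.5e-06 and 6.54e-05). Both HMGN1-OE libraries of 96 h were below both WT libraries, by -0.40 (SE 0.36, adjusted p = 0.859 in limma) and relative to the median gene by -0.91 (limma, adjusted p = 0.121).

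Alox15 encodes the mouse 12/15-lipoxygenase, known in eosinophils and resident macrophages as a source of lipid mediators other than leukotrienes. It is on chromosome 11 and was between 0.187 and 0.252 FPKM in the 8 libraries of 0 and 36 h. At 96 h it was 6.72 and 4.73 FPKM in WT and 1.23 and 2.76 FPKM in HMGN1-OE cells. It was therefore near the floor of the table until 36 h and higher in every library of 96 h, with the WT libraries above the HMGN1-OE libraries. Over the 96 h Alox15 rose by 2.45 in WT (SE 0.33, adjusted p = 3.03e-12 in limma) and by 1.26 in HMGN1-OE cells (SE 0.33, adjusted p = 0.00051 in limma), and relative to the median gene by 4.10 and 2.22 (limma, adjusted p = 6.49e-06 and 0.000118). The HMGN1-OE value was 0.88 without HMGN1-OE library 1 of 96 h (limma, adjusted p = 0.063), and that from 36 to 96 h went from 1.26 to 0.89 (limma, adjusted p = 0.0607).

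At 96 h Alox15 was lower in HMGN1-OE than in WT cells, by -1.20 (SE 0.33, adjusted p = 0.0421 in limma) and relative to the median gene by -1.88 (limma, adjusted p = 0.0351). The adjusted p ranged from 0.0155 to 0.932 over 21 alternatives, of which 7 kept the call. It was lost without any 1 of the 4 libraries of 96 h. The difference was -0.82 without HMGN1-OE library 0, -1.57 without HMGN1-OE library 1, -0.98 without WT library 0 and -1.42 without WT library 1. The call was also lost without any 1 of the HMGN1-OE libraries of 0 and 36 h, which enter only through the spread. The rise from 0 to 96 h itself differed between the genotypes by -1.19 (SE 0.47), with a limma p of 0.011 before and 0.703 after adjustment, so a difference in the rise was not shown.

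Markers of eosinophils rose with Alox15 and Ltc4s from 36 to 96 h. All 9 eosinophil markers were in the table, among them Prg2 and Epx, which encode granule proteins. Their sum ranged from 8.6 to 73.9 FPKM over the 8 libraries of 0 and 36 h. It was 8.6 to 17.3 FPKM in WT and 22.1 to 29.6 in HMGN1-OE cells at 0 h. At 36 h it was 17 to 73.9 FPKM in WT and 9.99 to 12.6 in HMGN1-OE cells. Alox15 and Ltc4s overlapped between the genotypes at both of these times. At 96 h the sum ranged from 1150 to 2510 FPKM in WT and from 282 to 589 FPKM in HMGN1-OE cells, so it was higher in the genotype with more Alox15. Prg2 was 1970 and 933 FPKM in WT and 186 and 472 FPKM in HMGN1-OE cells at 96 h. Of the 9 markers 7 passed the filter on low values, among them Siglecf. Il5ra and Ccr3 did not, and were at most 0.451 FPKM in every library. Both HMGN1-OE libraries were below both WT libraries at 96 h in 8 of the 9 eosinophil markers and in 4 of the 12 neutrophil markers. These 4 were Retnlg (139 and 151 FPKM in WT, 45.5 and 45.1 in HMGN1-OE cells), Mmp8, Mmp9 and Cxcr2. In the other direction 0 eosinophil markers and 1 neutrophil marker separated. The count of eosinophil markers takes in Il5ra and Ccr3, and the share of all tested genes that separated was not counted. Summed neutrophil markers were 67200 to 96600 FPKM in WT and 121000 to 173000 in HMGN1-OE cells at 96 h, with S100a9 almost absent from WT library 0. In these bulk samples fewer cells of a type and less RNA per cell cannot be told apart, and the part of eosinophil or neutrophil RNA in the Alox15 and Ltc4s values was not tested.

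Ptgs1 encodes cyclooxygenase-1, the constitutive enzyme that makes prostaglandin H2. It is on chromosome 2, where the gene model Gm43621 overlaps it on the other strand. It was 52.6 and 107 FPKM in WT cells at 0 h, 120 and 122 at 36 h, and 106 and 46.9 at 96 h. HMGN1-OE cells had 50.8 and 29.2 FPKM at 0 h, 68.8 and 64.2 at 36 h, and 80.9 and 101 at 96 h. The HMGN1-OE libraries were higher at each later time without overlap, whereas the WT libraries of 0 and 96 h overlapped. From 0 to 96 h Ptgs1 rose in HMGN1-OE cells by 1.21 (SE 0.56, adjusted p = 0.0465 in limma), and its change in WT cells was -0.09 (SE 0.56, adjusted p = 0.886 in limma). The interaction, 1.30 (SE 0.79), had a limma p of 0.102 before and 0.81 after adjustment. The HMGN1-OE call was lost without any 1 of the 6 HMGN1-OE libraries, with values between 0.82 and 1.60, and without either WT library of 36 h. Ptgs1 rose relative to the median gene, by 1.97 in WT and by 2.64 in HMGN1-OE cells (limma, adjusted p = 4.48e-06 and 3.64e-06). From 36 to 96 h its WT change was -0.77 (limma, adjusted p = 0.182), and -1.35 without WT library 0 of 96 h, where it was called.

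Both HMGN1-OE libraries had less Ptgs1 than both WT libraries at 0 h and at 36 h. The difference was -0.94 at 0 h (limma, adjusted p = 1) and -0.86 at 36 h (limma, adjusted p = 0.496). Against the median gene it was -0.81 at 0 h (SE 0.11, adjusted p = 0.0344 in limma) and -0.26 at 36 h (SE 0.11, adjusted p = 1 in limma).

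Ptgs2 encodes cyclooxygenase-2, the form induced by inflammatory signals. It is on chromosome 1 and stayed between 0.641 and 3.59 FPKM in all 12 libraries. In WT cells it was 1.48 and 2.98 FPKM at 0 h, 3.59 and 2.96 at 36 h, and 2.58 and 0.641 at 96 h. The HMGN1-OE values were 2.05 and 1.51 FPKM at 0 h, 1.68 and 1.70 at 36 h, and 0.939 and 1.79 at 96 h. From 36 to 96 h it fell in WT cells by -0.81 (SE 0.37, adjusted p = 0.0316 in limma). This value was -0.25 without WT library 1 of 96 h, -1.38 without library 0 of 96 h and -0.71 without library 0 of 36 h, and the first and the last were not called. Without WT library 0 of 96 h the change from 0 to 96 h, -0.38 with all libraries, was -0.94 and was called (limma, adjusted p = 0.0355). The change from 36 to 96 h relative to the median gene was 0.92 (limma, adjusted p = 0.00837), the opposite direction.

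Hpgds encodes the hematopoietic prostaglandin D synthase, which turns prostaglandin H2 into prostaglandin D2, a product known from mast cells. It is on chromosome 6. In WT cells it was 10.5 and 16.6 FPKM at 0 h, 6.84 and 20.7 at 36 h, and 3.43 and 3.44 at 96 h. In HMGN1-OE cells it was 13.2 and 11.2 FPKM at 0 h, 6.49 and 4.56 at 36 h, and 2.36 and 1.33 at 96 h. Each later HMGN1-OE pair was below the earlier one, and the 4 libraries of 96 h were below all others. Over the 96 h Hpgds fell by -1.68 in WT (SE 0.46, adjusted p = 0.000451 in limma) and by -2.24 in HMGN1-OE cells (SE 0.46, adjusted p = 7.45e-06 in limma). Against the median gene the changes were 0.13 (limma, adjusted p = 0.82) and -1.16 (limma, adjusted p = 0.0571), so neither was called on that scale. The fall from 36 to 96 h was -1.56 in WT (limma, adjusted p = 0.000873) and -1.21 in HMGN1-OE cells (limma, adjusted p = 0.0146). It was not called in WT cells without WT library 1 of 36 h (-0.82), nor in HMGN1-OE cells without HMGN1-OE library 0 of 36 h (-0.99) or library 1 of 96 h (-0.94). At 36 h and at 96 h both HMGN1-OE libraries lay below both WT libraries, by -1.02 (limma, adjusted p = 0.496) and -0.67 (limma, adjusted p = 0.859). These differences were -0.46 and -1.26 relative to the median gene (limma, adjusted p = 1 and 0.159), so their order turned with the scale.

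The summed level of 11 basophil or mast cell markers did not follow Hpgds over the early times. It ranged from 437 to 1020 FPKM over the 4 libraries of 0 h, from 909 to 2970 at 36 h and from 144 to 593 at 96 h. Of the 11 markers 8 passed the filter on low values, among them Tpsb2, Cpa3 and Fcer1a. Tpsab1, Cma1 and Mcpt4 did not, and were at most 0.424 FPKM in every library. The part of basophil or mast cell RNA in the Hpgds values was not tested.

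Between genotypes, 0 of the 9 genes were called at 0 h by limma, and 1.36% of tested genes were called. At an unadjusted p under 0.05 in limma it was 1 of 9, beside 457 of the 11516 tested genes. At 36 h 1 of 9 was called, Alox5, against 1.26%. At 96 h 2 of 9 were called, Alox5 and Alox15, against 0.669%. All 3 calls were lower in HMGN1-OE cells, the 2 of Alox5 had overlapping libraries, and with fits that took the spread from each gene alone 0 of 9 were called at each time. The difference in the change from 0 to 36 h was called by limma for 0 of 9 genes and for 0.504% of tested genes. At an unadjusted p under 0.05 in limma it was 0 of 9, beside 220 of 11516. The difference in the change from 0 to 96 h was called for 0 of 9 and for 0.677% of tested genes. At an unadjusted p under 0.05 in limma it was 1 of 9 (Alox15), beside 334 of 11516.

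**Figure D4:**
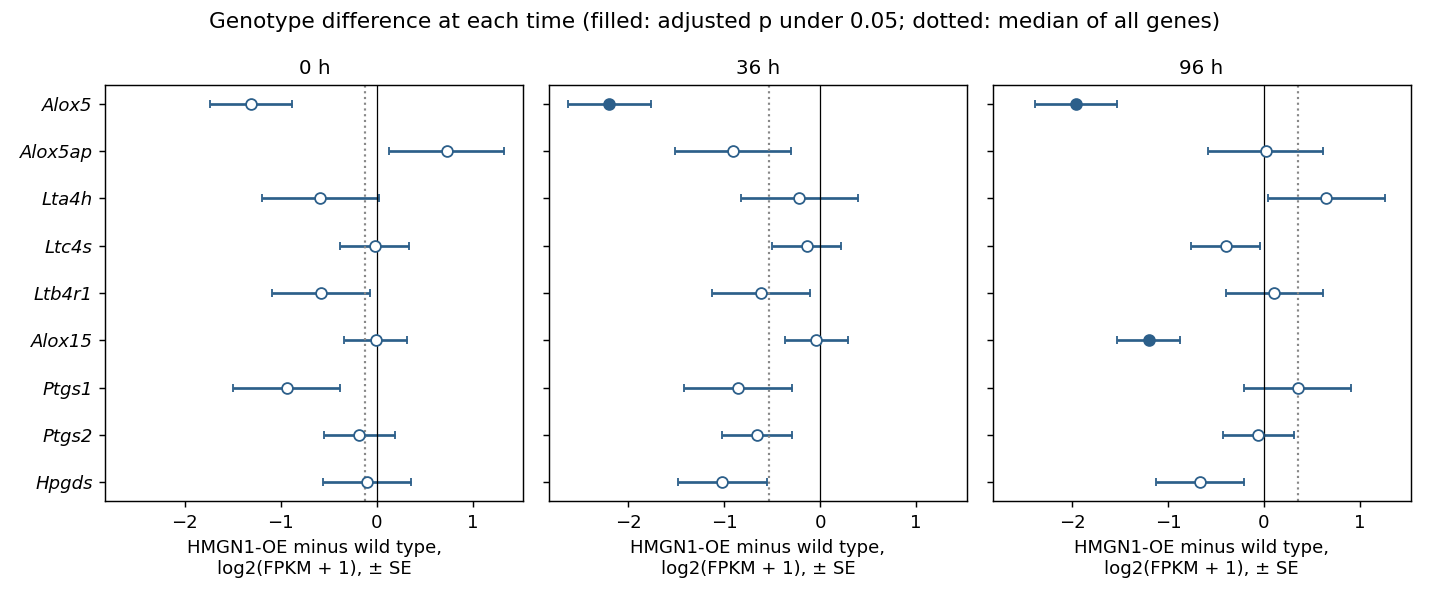
HMGN1-OE minus WT in log2(FPKM + 1) with its standard error at 0, 36 and 96 h, with filled points for an adjusted p-value under 0.05 in limma and a dotted line for the median of all tested genes, at -0.12, -0.54 and 0.36. Alox5 lies furthest to the left at each time and is filled at 36 and 96 h although its libraries overlap, and Alox15 is filled at 96 h.

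From 0 to 36 h limma called 1 of 9 genes in WT cells, Alox5, where 0.617% of tested genes were called. In HMGN1-OE cells it called 0 of 9, where 1.80% were called. At an unadjusted p under 0.05 in limma it was 5 of 9 in HMGN1-OE cells, beside 578 of 11516 tested genes. From 36 to 96 h limma called 6 of 9 in WT cells, where 89.5% were called. In HMGN1-OE cells it called 5 of 9, where 69.0% were. Ltc4s, Ltb4r1 and Alox15 were the 3 that rose in each genotype, against 3.15% of tested genes called as higher in WT and 4.02% in HMGN1-OE cells. On the deposited scale Lta4h and Hpgds fell in both, and Ptgs2 fell in WT cells. Relative to the median gene, 6 of 9 rose and 0 fell in each genotype. Ptgs2 was among the genes that rose in WT cells, by 0.92, and Lta4h and Hpgds were not called. On that scale 3642 of 11516 tested genes were called as higher and 4423 as lower in WT cells. The HMGN1-OE counts were 3176 and 4331. The comparisons of 36 h with 0 h and with 96 h share the 36 h libraries.

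A list of 59 other genes of the pathway held 30 that passed the filter on low values. From 0 to 96 h, 6 of the 30 rose and 18 fell in WT cells, and 7 rose and 16 fell in HMGN1-OE cells. Of all tested genes 4.31% were called as higher and 77.2% as lower in WT cells, and 5.08% and 62.4% in HMGN1-OE cells, so the share that fell was no larger in this list than over all genes, and the counts by role that follow stand against the same shares. Relative to the median gene, 9 of the 30 rose and 11 fell in WT cells, and 11 rose and 7 fell in HMGN1-OE cells, beside 32.5% and 39.6% of all tested genes in WT and 29.5% and 37.3% in HMGN1-OE cells. The median change of the 30 was -1.83 in WT and -1.18 in HMGN1-OE cells, near the -1.75 and -1.28 of all tested genes.

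Of 13 phospholipases, which release arachidonic acid or cleave related lipids, 6 passed the filter. Pla2g4a, the cytosolic enzyme that acts on arachidonate phospholipids, fell from 39.4 and 65.8 FPKM at 0 h to 8.81 and 3.50 FPKM at 96 h in WT cells, by -2.97 (limma, adjusted p = 1.26e-07) and by -1.09 relative to the median gene. Pla2g12a fell by -2.89 in WT and by -1.91 in HMGN1-OE cells. Pla2g7, which breaks down platelet-activating factor, was the 1 that rose (by 1.23 in WT and by 0.89 in HMGN1-OE cells), from 0.144 and 0.246 FPKM to 0.211 and 5.52 FPKM in WT cells, with overlapping libraries there, and from 0.133 and 0.184 FPKM to 1.24 and 1.07 FPKM in HMGN1-OE cells.

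Among the partners of leukotriene synthesis, Mgst1 and Mgst2 encode membrane glutathione transferases related to Ltc4s, and Cotl1 encodes a protein that binds 5-lipoxygenase. Mgst1 was 8.31 and 40.8 FPKM in WT and 4.32 and 3.92 FPKM in HMGN1-OE cells at 0 h, and its WT pair differed in the same direction as that of Alox5. At 96 h it was 202 and 121 FPKM in WT and 186 and 244 FPKM in HMGN1-OE cells. The rise was 3.00 in WT (limma, adjusted p = 1.63e-07) and 5.39 in HMGN1-OE cells (limma, adjusted p = 2.34e-21). It was also the 1 gene of the 30 called between genotypes at 0 h, by -1.95 (limma, adjusted p = 0.0248), and that call was absent relative to the median gene (-1.78, adjusted p = 0.811 in limma). Mgst2 was 34.4 and 34.9 FPKM in HMGN1-OE cells at 0 h, 267 and 191 at 36 h, and 169 and 285 at 96 h, a rise of 2.63 from 0 to 96 h (limma, adjusted p = 3.46e-05). In WT cells Mgst2 was 45.6 and 273 FPKM at 0 h and 497 and 135 FPKM at 36 h. The WT values of 96 h were 151 and 72.1 FPKM, and the WT difference from 0 to 96 h was -0.10 (limma, adjusted p = 0.87). Cotl1 rose by 1.64 in WT and by 2.43 in HMGN1-OE cells from 0 to 96 h. Dpep2, a dipeptidase that turns leukotriene D4 into E4, rose from 0.286 and 0.394 FPKM to 2.71 and 7.91 FPKM in WT cells and by 1.85 on the log2 scale in HMGN1-OE cells (limma, adjusted p = 6.6e-07).

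Of the leukotriene receptors other than Ltb4r1, none of the 5 listed passed the filter, and Ltb4r2, the low-affinity receptor of leukotriene B4, was at most 0.666 FPKM. The 5 other lipoxygenases did not pass it either.

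Of 10 prostanoid synthases 9 passed, and from 0 to 96 h 2 rose and 6 fell in WT cells and 2 rose and 5 fell in HMGN1-OE cells. Ptges, the inducible prostaglandin E synthase, rose from 0.264 and 0.527 FPKM to 3.45 and 2.21 FPKM in WT cells, by 1.44 (limma, adjusted p = 4.15e-05), and by 1.38 in HMGN1-OE cells (limma, adjusted p = 0.000177). Ptges3, the cytosolic form that also serves as the cochaperone p23, fell by -3.84 in WT and by -2.74 in HMGN1-OE cells, and by -1.84 and -1.33 relative to the median gene. Ptgds, the other prostaglandin D synthase, fell from 11.9 and 13.6 FPKM to 0.648 and 0.607 FPKM in WT cells, by -3.08 (limma, adjusted p = 1.8e-10), and by -1.84 relative to the median gene. Akr1c18, a reductase that acts on prostaglandins and progesterone, was 3.97 and 5.78 FPKM at 0 h, 41.5 and 8.18 at 36 h and 48.9 and 3.95 at 96 h in WT cells, a rise of 1.44 from 0 to 96 h (limma, adjusted p = 0.00492) whose libraries overlapped.

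Of 9 prostanoid receptors 5 passed. Ptger3 and Ptger4, receptors of prostaglandin E2, and Ptgir, the prostacyclin receptor, fell in both genotypes from 0 to 96 h. Ptgir fell by -2.80 in WT and by -2.43 in HMGN1-OE cells, and Ptger3 by -2.16 and -2.38. Ptger4 fell by -1.68 in WT cells, where it was at 0.04 relative to the median gene, and by -2.06 in HMGN1-OE cells. Ptger1 was 17.9 and 33.9 FPKM at 0 h and 23.3 and 11.6 FPKM at 96 h in WT cells, and was not called. Of 9 genes of breakdown and transport 5 passed, and 4 fell in WT and 3 in HMGN1-OE cells, among them the export pumps Abcc1 and Abcc4, by -2.52 and -2.45 in WT and by -1.59 and -1.44 in HMGN1-OE cells. Abcc1, relative to the median gene, was at -0.62 in WT and -0.22 in HMGN1-OE cells.

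**Figure D5:**
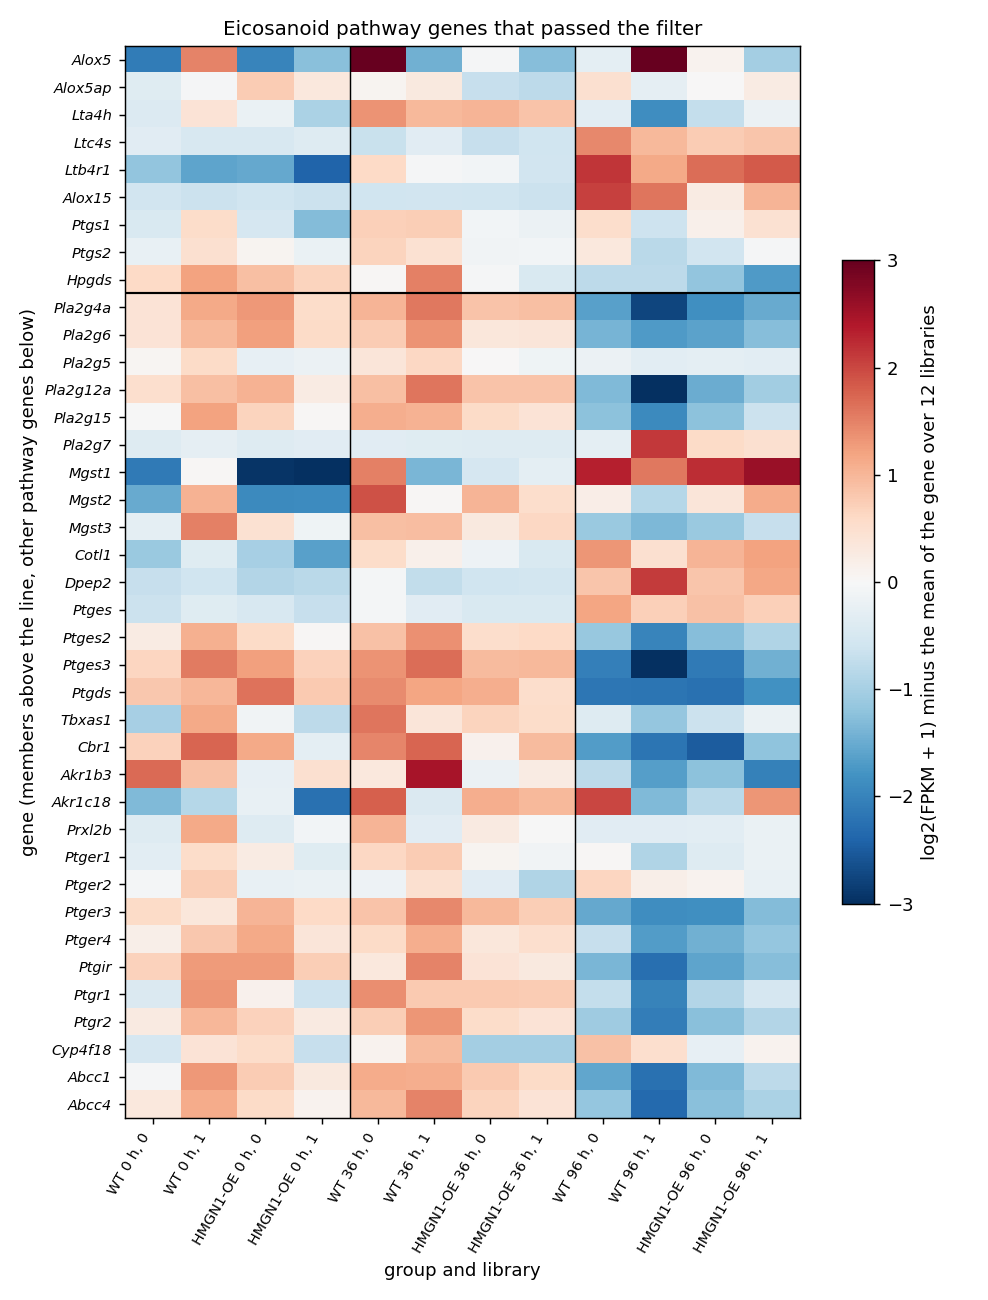
Heat map of log2(FPKM + 1) minus the mean of each gene over the 12 libraries, for the 9 genes (above the line) and the 30 other pathway genes that passed the filter (below), with red for higher and blue for lower. In the 4 libraries of 96 h most genes below the line are blue, and Mgst1, Cotl1, Dpep2 and Ptges are red with Ltc4s, Ltb4r1 and Alox15.

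The genes whose pattern over the 12 libraries was most like that of each member, after centring each library on its median, were listed with Pearson's r as a description. The libraries share time, genotype and scaling, and the centring itself raises genes near 0 at 96 h. Ltc4s was most like Retnlg (r = 0.995), a resistin-like gene of neutrophils, and Asprv1 (0.994), and these were also the nearest to Alox15, with 0.990 and 0.994. Ltb4r1 was most like Cotl1 (0.991) and Pglyrp1 (0.991), a granule protein of neutrophils. Ptgs2 was nearest to Ear6 (0.989), an eosinophil ribonuclease, Lta4h to Anxa3 (0.979), Alox5ap to Ppp1r9b (0.978) and Ptgs1 to Twf2 (0.990). The closest gene to Alox5 was Brap, at 0.918, and that to Hpgds was Arid1b, at 0.958. The 2 members most like each other were Ltc4s and Alox15 (0.99), and the pair with the lowest value was Lta4h and Hpgds (-0.71), each over 12 libraries.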

How the data were processed

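RNA-seq of WT and HMGN1-OE ER-HoxB8 cultures at 3 times was analysed. The authors deposited FPKM per gene after loess normalization to 92 ERCC RNAs. Their methods name Bowtie, and the submitters' processing notes list HISAT, Cufflinks 2.0.0 and mm9. Which of them made the values was not settled, so no coordinates on the build of the values are given, and those of promoters are on GRCm38.p6. The low values showed no steps that single reads would leave, so depth and counting error are unknown.

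A gene was tested if 2 or more of the 12 libraries reached 1 FPKM, which left 11516 genes and all 9 members. log2(FPKM + 1) was fitted with limma 3.58.1 in R 4.3.3 (eBayes with trend, a mean for each of 6 groups, two-sided, Benjamini-Hochberg adjustment over all tested genes of a comparison). The prior degrees of freedom came out as Inf, so every variance on the deposited scale was that of the trend. After division by the library median they were 2.37, so there each variance rested mostly on the gene's own libraries, and calls on the 2 scales differ in both respects. For 2 libraries against 2 the smallest p of an exact permutation test is 0.333. The study calls the libraries of a group biological duplicates. Whether they came from separate cultures or mice was not given in the sources used here, so p-values speak for these libraries only. On the deposited scale they rest on the trend over all genes and not on the spread of the gene itself. The fits were also run on simulated data with independent noise for each gene and library. Those data held no shift of whole libraries and no exchanged column, so they cannot speak to either.

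The members, the 59 other pathway genes and the marker lists were chosen with earlier results of these data known. The text names the members, pathway genes called or passing the filter by role, markers, Hmgn1 and, for each member, the most correlated genes with a mean of at least 5 FPKM. Division by the library median was added after the values were seen. Promoters came from the RefSeq table of GRCm38.p6 and chromosomes from GENCODE vM21. Figures were drawn with matplotlib 3.10.9 in Python 3.11.15.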

Additional observations from a re-analysis of the deposited data

How the results depend on the processing

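The rises of Ltc4s and Ltb4r1 from 0 to 96 h were called in both genotypes under all alternatives that included them, and that of Alox15 in WT cells likewise. The counts of members called that moved by over 1.5 times were these. Between genotypes at 0 h the count of 0 became 1 after division by the median and after quantile normalization. At 36 h the count of 1 became 0 without a filter, with centring, division by the median, quantile normalization, only the groups compared, limma robust, limma without trend, and a linear model without moderation. At 96 h the count of 2 became 1 with a pseudocount of 0.1, a mean of at least 5 FPKM, division by the median, quantile normalization and limma robust, and 0 without a filter, with centring, only the groups compared, limma without trend and the linear model. From 0 to 36 h in WT cells the count of 1 became 0 under all of these settings except the pseudocount. A mean of at least 5 FPKM removes Ltc4s, Alox15 and Ptgs2 by construction and left 3 called from 0 to 96 h and from 36 to 96 h in each genotype. Only the groups compared left 3 from 0 to 96 h in WT cells, and no filter left 3 from 36 to 96 h in HMGN1-OE cells. From 0 to 36 h in HMGN1-OE cells the count of 0 became 1 with centring, 3 after division by the median and after quantile normalization, and 4 with only the groups compared. Except where a construction is named, the cause was not tested.

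With 1 library left out in turn, where the lone library of a group is assumed to vary like the others, the counts ranged from 0 to 1 between genotypes at 0 and 36 h, from 0 to 2 at 96 h, from 0 to 2 from 0 to 36 h in WT cells, from 0 to 1 in HMGN1-OE cells, from 2 to 5 from 36 to 96 h in HMGN1-OE cells, and from 0 to 1 for the interaction at 36 h. Without WT library 0 of 36 h, Alox5 turned to 0.78 between genotypes at 36 h, to -1.13 from 0 to 36 h and to 2.95 from 36 to 96 h in WT cells, the last also to 1.77 without WT library 0 of 96 h. Without WT library 1 of 36 h the same 3 values were -5.18, 4.83 and -3.01.

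Scaling to each library's median removed the common fall at 96 h and turned these values to a rise, given for centring, division and quantile normalization in turn. From 36 to 96 h in WT cells they were 2.29, 2.16 and 2.07 for Alox5, 2.25, 2.49 and 2.59 for Alox5ap, 0.07, 0.31 and 0.29 for Lta4h, 1.56, 1.78 and 1.84 for Ptgs1, 1.51, 0.92 and 0.82 for Ptgs2, and 0.76, 0.69 and 0.67 for Hpgds. From 0 to 96 h in WT cells they were 0.75, 0.97 and 0.93 for Lta4h, 1.76, 1.97 and 2 for Ptgs1, 1.47, 1.01 and 0.92 for Ptgs2, and 0.17, 0.13 and 0.14 for Hpgds. In HMGN1-OE cells they were 0.89, 1.02 and 1.02 for Alox5ap and 1.06, 0.69 and 0.63 for Ptgs2 from 0 to 96 h, and 1.13, 0.75 and 0.70 for Ptgs2 from 36 to 96 h. Lta4h turned to 0.08 and 0.16 there with division and quantile normalization, and Hpgds to 0.13 with centring. No paired analysis was possible because the digits in the column names (0 and 1) differ from the replicate numbers in the sample titles (1 and 2). The depth is unknown, so counting error could be given for none of the 9 genes.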

Other observations

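Hoxa9, a homeobox gene of progenitors, was looked at after its values were seen. In WT cells it was 2.99 and 0.230 FPKM at 0 h, 0.164 and 7.06 FPKM at 36 h, and 0.828 and 0.0341 FPKM at 96 h, so it was lower in the library with more Alox5 at each time. In HMGN1-OE cells it was 31.5 and 6.87 FPKM at 0 h, 6.17 and 24.6 FPKM at 36 h, and 0.588 and 4.22 FPKM at 96 h. In these 3 pairs too the library with less Hoxa9 had more Alox5. The groups hold 2 libraries each, and no test was made.

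Tbxas1, the thromboxane synthase, was 20.3 and 92.6 FPKM at 0 h and 130 and 53.7 FPKM at 36 h in WT cells, in the same order as Alox5, and 31.7 and 18.2 FPKM at 96 h, in the opposite order. In HMGN1-OE cells it was between 23.7 and 66.6 FPKM in all 6 libraries. Prxl2b, a reductase of prostaglandin F synthesis, was at most 0.722 FPKM in 10 libraries and 2.15 and 1.90 FPKM in the WT libraries with more Alox5 at 0 and 36 h.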
